A study of Homo sapiens with 6 samples.

Results

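TRAC, TRAJ32 and DAD1 are neighbours on chromosome 14 and make up 3 of the 32434 gene IDs measured. They were found by their Ensembl IDs in GENCODE 29. TRAC (ENSG00000277734) and TRAJ32 (ENSG00000211857) were picked because they were detected in neuroblastoma cells and were lower after MYT1 knockdown, and DAD1 (ENSG00000129562) because it lies next to them. The values of TRAC, TRAJ32 and DAD1 in that contrast are therefore given as a description, with no test.

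The cells were SK-N-BE(2), a human neuroblastoma line carrying amplified MYCN, kept in RPMI medium with 10% serum. In the shMYT1 group (3 libraries) a lentivirus delivered a short hairpin RNA against MYT1, a zinc-finger protein that acts on transcription while neurons differentiate. In the shNC group (3 libraries) the hairpin was a control. Infection with the virus lasted 24 h and puromycin 48 h, a treatment that the labels give for both groups. The genotype label says knockout, while the protocol describes a stable knockdown. No label ties the replicates to cultures of their own, and p-values therefore reflect only how far these libraries differ. Each library held 18.16 to 21.68 M fragments. FPKM are fragments scaled by exon length and by library size, and errors given as ± are SD over the 3 libraries of a group. MYT1 itself stood at 5.73, 5.12 and 5.18 FPKM in shNC and at 4.20, 4.13 and 4.36 FPKM in shMYT1, without overlap. Its mean was 5.34 ± 0.34 against 4.23 ± 0.12 FPKM (log2 difference -0.28, limma adjusted p = 0.0102).

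TRAC encodes the constant region of the T cell receptor alpha chain. In developing T cells the RAG1 and RAG2 proteins join a variable segment to a joining segment (TRAJ), and the joined exon is spliced to TRAC. The alpha chain pairs with a beta chain and reaches the cell surface only with the CD3 proteins and CD247, the zeta chain. Before they are joined, the segments can be transcribed as unrearranged germline RNA. An enhancer downstream of TRAC, on the side of DAD1, drives the locus in T cells and is bound by factors of the TCF/LEF, RUNX, ETS, CREB and GATA families. DAD1 is a small membrane subunit of the oligosaccharyltransferase, the complex that attaches N-linked sugars to new proteins in the endoplasmic reticulum, and is expressed in most cells.

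The 3 genes differ in size and orientation (GENCODE 29, hg38). TRAJ32 is a single coding exon of 66 bases on the plus strand (chr14:22509341-22509406). TRAC begins 38.1 kb further on and has 4 exons with 976 bases in all (chr14:22547506-22552154, plus strand). The exons of TRAC have 273, 45, 108 and 550 bases, and the last lies wholly in the 3′ UTR. DAD1 lies on the minus strand (chr14:22564905-22589269), so that the 3′ ends of TRAC and DAD1 face each other across 12.8 kb. No annotated exon of another gene overlaps an exon of any of the 3, on either strand. Their GC content was alike, 47.0% in TRAJ32, 49.1% in the TRAC transcript and 48.8% in the main DAD1 transcript.

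The joining segments with fragments are shown, since they are the parts of the locus measured beside TRAC. Capitals mark TTTGG, any 4 bases and GG, a coding form of the phenylalanine-glycine-any-glycine motif of joining segments, searched on the coding strand. It was present in 49 of 60 annotated TRAJ segments (81.7%). The sequences are from GENCODE 29 transcripts, 5′ to 3′.
TRAJ32: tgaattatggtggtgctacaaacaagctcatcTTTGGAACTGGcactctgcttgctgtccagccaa
TRAJ25: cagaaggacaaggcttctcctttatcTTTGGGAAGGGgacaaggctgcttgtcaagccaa

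TRAC was low but clearly detected in control cells and lower after knockdown, with shMYT1 replicate 2 nearest to the counting floor. It was measured at 3.72, 3.95 and 3.62 FPKM in shNC replicates 1 to 3 and at 0.667, 0.290 and 0.865 FPKM in shMYT1 replicates 1 to 3. All shNC values lay above all shMYT1 values, and shMYT1 replicate 2 was the lowest. The group means were 3.76 ± 0.17 FPKM in shNC and 0.607 ± 0.292 FPKM in shMYT1. Behind them were 78, 81 and 74 fragments in shNC and 13, 5 and 15 in shMYT1, against a floor of 3 fragments that equals 0.143 to 0.174 FPKM for TRAC. Over the groups, 233 fragments stood against 33, a level 6.17-fold lower in shMYT1. The 95% interval was 4.27 to 9.17 (exact binomial on summed fragments, counting error only). It leaves out the spread between replicates and the choice of TRAC for its fall, so it is no test. On the log2(FPKM + 1) scale, which understates differences of low genes, the difference was -1.58. In control cells 71.9% of all gene IDs had a lower mean FPKM than TRAC.

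TRAJ32 followed the same order but rests on very few fragments. Its level was 7.06, 8.66 and 7.23 FPKM in shNC and 2.28, 1.71 and 2.56 FPKM in shMYT1, again with no overlap between groups. These values come from 10, 12 and 10 fragments in shNC and from 3, 2 and 3 in shMYT1. On 66 bases, 3 fragments already equal 2.12 to 2.57 FPKM, so the shMYT1 values lie at or under the floor. The segment is also shorter than the library inserts of 250 to 300 bases, and its FPKM cannot be set against that of longer genes. The sum of 32 fragments against 8 gives a level 3.49-fold lower in shMYT1. Its 95% interval was 1.58 to 8.77 (exact binomial on summed fragments, counting error only) and, as for TRAC, is no test. The log2(FPKM + 1) difference was -1.45.

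Fragments on TRAJ32 made up 12.1% of those on TRAJ32 and TRAC together in shNC (32 of 265, 95% Wilson interval 8.68 to 16.5%) and 19.5% in shMYT1 (8 of 41, 10.2 to 34.0%). These shares rest on the values that chose the genes and were not compared.

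**Figure D1:**
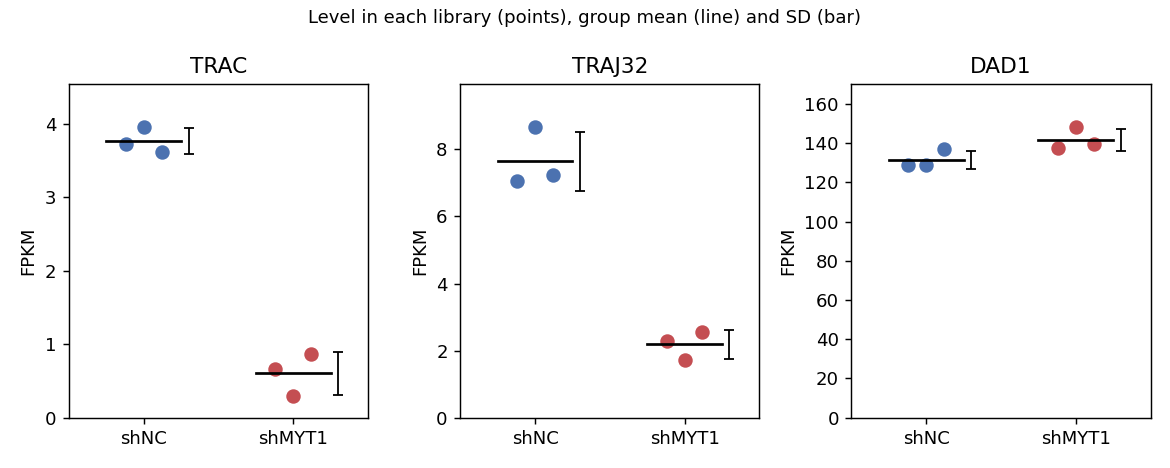
FPKM of TRAC, TRAJ32 and DAD1 (vertical axes from 0) in the 3 shNC and 3 shMYT1 libraries, with points for libraries, lines for group means and bars for the SD. TRAC and TRAJ32 sit lower in every shMYT1 library, while DAD1 sits at 129 to 137 FPKM in shNC and 137 to 148 FPKM in shMYT1.

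DAD1 was abundant in every library. It was measured at 129.0, 128.7 and 136.9 FPKM in shNC and at 137.5, 148.2 and 139.6 FPKM in shMYT1. The highest shNC library and the lowest shMYT1 library were nearly level. The means were 132 ± 4.64 FPKM in shNC and 142 ± 5.67 FPKM in shMYT1, a difference of 7.79% or 0.11 on the log2(FPKM + 1) scale, resting on 2004 to 2319 fragments per library. Groups did not overlap for any of the 3 genes as deposited. With each library rescaled to the same FPKM total, the difference of DAD1 was 0.07 and its groups overlapped, with shNC replicate 3 at 137.8 FPKM and shMYT1 replicate 1 at 137.0 FPKM, while those of TRAC and TRAJ32 did not overlap. Tests covered the 14106 genes whose mean reached 1 FPKM, and among these the groups did not overlap in 42.3%, and since the genes were picked on this contrast nothing is read from their count. All 3 genes passed this filter, TRAC only through its shNC values. Ordered by the log2(FPKM + 1) difference, TRAC was number 11 from the lowest of 14106 genes, and the median of all genes was -0.005. TRAC was picked for its fall, so nothing is read from this place either.

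Upstream of the start of DAD1 the 205 bases before its GENCODE start (chr14:22589270-22589474, minus strand, RefSeq promoter table, GRCh38.p14) are shown because the hairpin's target is a DNA-binding protein. Capitals mark AAGTT, the core of the motif bound by the MYT1 family, searched on both strands.
DAD1 upstream: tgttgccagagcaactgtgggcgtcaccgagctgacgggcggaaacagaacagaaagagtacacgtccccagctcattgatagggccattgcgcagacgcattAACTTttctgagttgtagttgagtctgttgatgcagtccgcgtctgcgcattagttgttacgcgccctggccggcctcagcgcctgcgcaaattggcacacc
There was 1 match, and 26.4% of the 35116 windows of the same length in that table held at least 1. A match to 5 letters is a description of the sequence only.

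Few other genes of the T cell receptor alpha and delta locus had a row in the table used here. Of 126 annotated segments and constant genes of the locus, 3 had a row in the table, TRAC, TRAJ32 and TRAJ25. TRAJ25 (chr14:22518812-22518871, 60 bases) lies between TRAJ32 and TRAC. It had 0, 2 and 1 fragments in shNC and 0 in each shMYT1 library. None of 54 TRAV segments had a row, nor did TRDC, the delta chain constant gene, or the other 58 TRAJ segments, so no variable segment was measured beside TRAC. Every row of the table was above 0 in at least 1 library.

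Beyond TRAC, the antigen receptor constant genes that had a row held 0 to 10 fragments per library. Of 19 others listed, 5 had a row, and their summed level was 0.257 to 0.565 FPKM in shNC and 0.303 to 0.452 FPKM in shMYT1. TRBC2, a constant gene of the beta chain, was at 0.246, 0.189 and 0.377 FPKM in shNC and at 0.0661, 0.149 and 0.149 FPKM in shMYT1, from 1 to 6 fragments per library. IGHM, the constant gene of the immunoglobulin mu chain, had 0.0499 to 0.153 FPKM in shNC and 0.121 to 0.268 FPKM in shMYT1. TRAC in control cells was thus the 1 constant gene with over 20 fragments per library.

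Markers of T cells gave no full T cell profile. Of 23 listed markers 12 had a row, and CD3D, CD3E and CD3G, which encode the chains that carry the receptor to the surface, were among the 11 without one, as were TRBC1, CD2 and LCK. The summed level of the markers was 3.70 to 4.48 FPKM in shNC and 2.24 to 2.59 FPKM in shMYT1. In bulk RNA, fewer cells of a type and less RNA per cell cannot be told apart. Only CD247, the zeta chain of the receptor complex, passed the filter. It was measured at 1.52, 1.74 and 1.96 FPKM in shNC and at 0.733, 0.883 and 0.879 FPKM in shMYT1, without overlap. CD247 fell by 0.58 on the log2(FPKM + 1) scale (SE 0.09, limma adjusted p = 0.00587, lower in 3 of 3 libraries), where 24.2% of all tested genes passed in either direction. Its mean FPKM was 2.09-fold lower. CD247 reached the filter through its shNC values only, so this call is of a gene that entered the test through the group where it is high.

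RAG1, RAG2, CD8A and CD4, all under the filter, were chosen for mention after their values were seen. RAG2, a subunit of the recombinase, was at 0.253, 0.326 and 0.354 FPKM in shNC and at 0.0286, 0.0484 and 0.0161 FPKM in shMYT1, 69 fragments against 6. Fitted over all 32434 genes, of which 7.89% passed, RAG2 fell (limma adjusted p = 0.00946). Exons of RAG1 and C11orf74 overlap it in the opposite direction, and without a stated strand setting its fragments cannot be assigned with certainty. RAG1, the other recombinase gene, was level at 0.353 ± 0.064 FPKM in shNC and 0.349 ± 0.069 FPKM in shMYT1. CD8A, a coreceptor, was at 0.483 ± 0.188 and 0.208 ± 0.019 FPKM (limma adjusted p = 0.165 over all genes), and CD4 at 0.426 ± 0.010 and 0.440 ± 0.020 FPKM. The part of T cells in the TRAC difference was not tested.

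**Figure D2:**
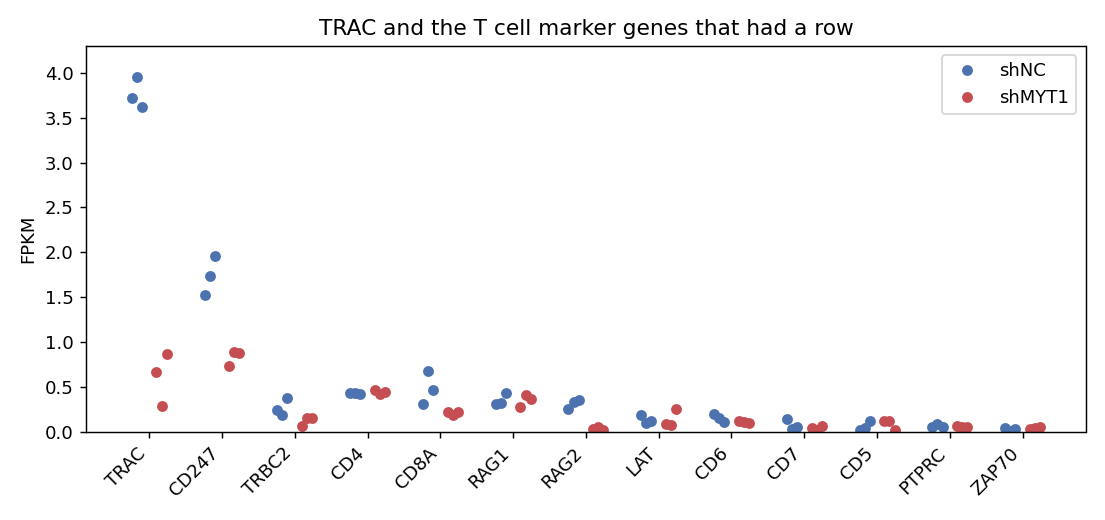
FPKM (vertical axis, from 0) of TRAC and of the 12 T cell marker genes that had a row, with 1 point per library. TRAC and CD247 stand out in shNC at 3.62 to 3.95 and 1.52 to 1.96 FPKM, and every other marker is under 0.7 FPKM in each library.

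The markers of the labelled cell type were present. All 10 listed markers of noradrenergic neuroblastoma had a row and passed the filter, with a summed level of 3016 to 3175 FPKM in shNC and 2612 to 2715 FPKM in shMYT1. Of these markers, 3 rose and 4 fell, 70.0% against 24.2% of all tested genes. Of 7 listed markers of myeloid cells 3 had a row, and none passed the filter. Their sum was 0.603 to 0.847 FPKM in shNC and 1.09 to 1.51 FPKM in shMYT1. Only CD14 was higher in every shMYT1 library, at 0.303 to 0.480 FPKM in shNC and 0.770 to 1.17 FPKM in shMYT1. CSF1R was lower, at 0.0904 to 0.120 FPKM in shNC and 0.0437 to 0.0584 FPKM in shMYT1. The groups overlapped in FCER1G, at 0.198 to 0.338 FPKM in shNC and 0.260 to 0.293 FPKM in shMYT1. Of the B cell markers, PAX5 alone passed the filter, at 4.35 ± 0.17 FPKM in shNC and 5.50 ± 0.19 FPKM in shMYT1, while MS4A1 and IGKC had no row.

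Factors that act on the alpha chain enhancer or in T cell gene control were largely expressed. Of 26 listed genes, 20 passed the filter, 1 rose, 4 fell and 15 did not pass the test, so that 5 of 20 were called where 24.2% of all genes were. Their median log2(FPKM + 1) difference was -0.006, against -0.005 over all tested genes. GATA3, a zinc-finger factor needed for T cells and also part of the noradrenergic state, was at 98.5, 95.0 and 99.8 FPKM in shNC and at 92.9, 93.7 and 92.9 FPKM in shMYT1. All shMYT1 values of GATA3 were lower, but by 0.07 on the log2(FPKM + 1) scale (limma adjusted p = 0.110). With each library rescaled to the same FPKM total, 7 factors fell, GATA3 among them, and 1 rose. That rescaling lowered genes in general. Of all 14112 genes then tested, 2278 fell and 1307 rose, and the median difference was -0.035, against -0.040 for the factors.

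ETS1, which encodes an ETS-family factor that binds the enhancer, was the factor that rose. Its level was 17.5 ± 0.39 FPKM in shNC and 21.0 ± 1.24 FPKM in shMYT1 (log2 difference 0.25, SE 0.05, limma adjusted p = 0.0102). The factors that fell were MYB (by 0.32, limma adjusted p = 0.0445), RAD21, a cohesin subunit (by 0.22), and the E-protein genes TCF4 (by 0.16) and TCF3 (by 0.11). Exons of MYB, RAD21 and TCF4 overlap genes on the opposite strand. The count of 5 was 2 without shNC replicate 1 and 1 without shNC replicate 2, shMYT1 replicate 1 or shMYT1 replicate 3. In these settings the calls among all tested genes also dropped, to 2195, 2038, 2196 and 2298, against 3420.

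The lymphoid members of the TCF/LEF and RUNX families were low. LEF1 had 0 to 4 fragments per library (0 to 0.0420 FPKM). TCF7 was at 1.36, 1.06 and 1.10 FPKM in shNC and at 0.921, 0.837 and 0.794 FPKM after knockdown (limma adjusted p = 0.129). Like CD247, TCF7 reached the filter through its shNC values only, the group where it is high. It shares exon bases with SKP1 on the opposite strand. RUNX1 was at 0.176 ± 0.025 FPKM in shNC and 0.302 ± 0.021 FPKM after knockdown (limma adjusted p = 0.116 over all genes). RUNX2, named after its values were seen, moved the other way, from 0.501 ± 0.056 to 0.233 ± 0.025 FPKM (limma adjusted p = 0.0401 over all genes). CBFB, the shared partner of the RUNX proteins, was at 36.1 to 39.3 FPKM in shNC and 39.6 to 43.2 FPKM in shMYT1.

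**Figure D3:**
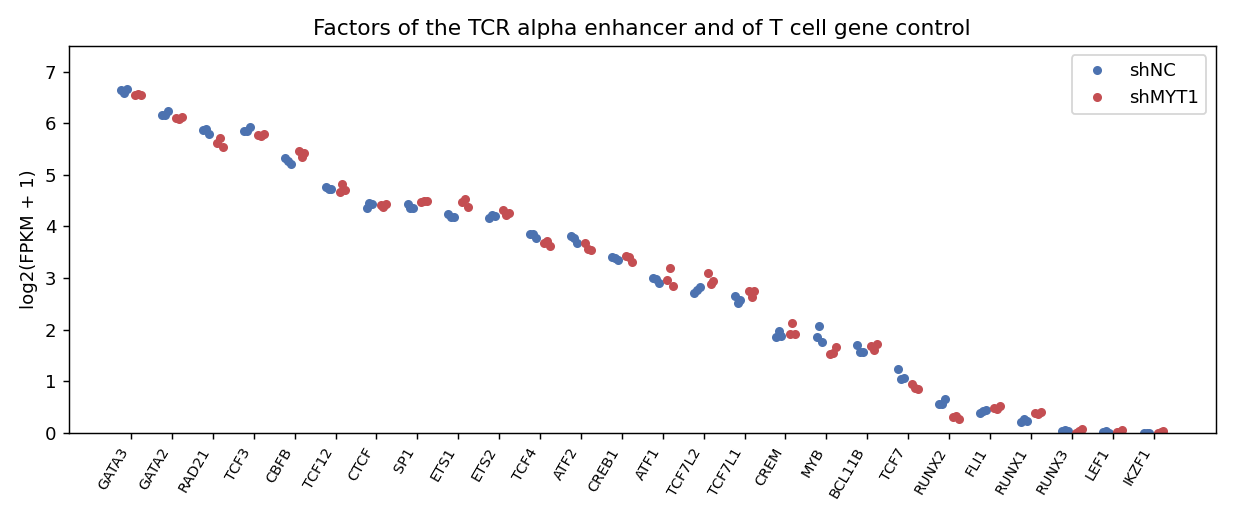
Levels as log2(FPKM + 1) of the 26 factor genes (vertical axis), ordered by level, with 1 point per library. GATA3 leads and RUNX3, LEF1 and IKZF1 lie near 0, and in most genes the points of both groups lie close together.

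Tested genes within 1000 kb of TRAC, apart from TRAJ32 and DAD1, had log2(FPKM + 1) differences between -0.24 and 0.20. TRAC and TRAJ32 were picked for their fall, so nothing is read from their larger differences. Of 40 other genes within 1000 kb that had a row, 21 were tested. The rest were under the filter, where the log2(FPKM + 1) scale understates differences, and nothing is said of them here. No gene other than TRAJ32 passed the filter in the 1000 kb on the side of the variable segments. The nearest tested genes on that side were SALL2, METTL3, RAB2B and TOX4, all just over 1000 kb away, with log2 differences of 0.09, 0.11, -0.02 and 0.05 and limma adjusted p from 0.0917 to 0.693. On the other side the nearest after DAD1 was ABHD4, a lipid-cleaving hydrolase gene, at 1.70, 1.36 and 1.77 FPKM in shNC and 1.21, 1.46 and 1.34 FPKM in shMYT1 (log2 difference -0.16, limma adjusted p = 0.261). Of 21 tested genes within 1000 kb, 1 rose and 1 fell, 9.52% against 24.2% of all tested genes, with a median log2(FPKM + 1) difference of -0.02 against -0.005.

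OXA1L, a gene for insertion of proteins into the inner mitochondrial membrane, was the neighbour that rose. It went from 16.5 ± 0.87 to 19.2 ± 0.20 FPKM (log2 difference 0.20, SE 0.04, limma adjusted p = 0.0143). Its call was lost without shNC replicate 2 (limma adjusted p = 0.0553), which left 1 of the 2 calls. OXA1L shares exon bases with AL160314.2 on the opposite strand. MMP14, which encodes a membrane-bound matrix metalloproteinase, fell from 40.5 ± 1.81 to 34.3 ± 1.05 FPKM (log2 difference -0.24, SE 0.04, limma adjusted p = 0.00802). MRPL52, a mitochondrial ribosomal protein gene, had a log2 difference of -0.04 (limma adjusted p = 0.446). Within 2000 kb, 9 of 67 tested genes passed (7 rose and 2 fell), 13.4% against 24.2% of all tested genes.

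**Figure D4:**
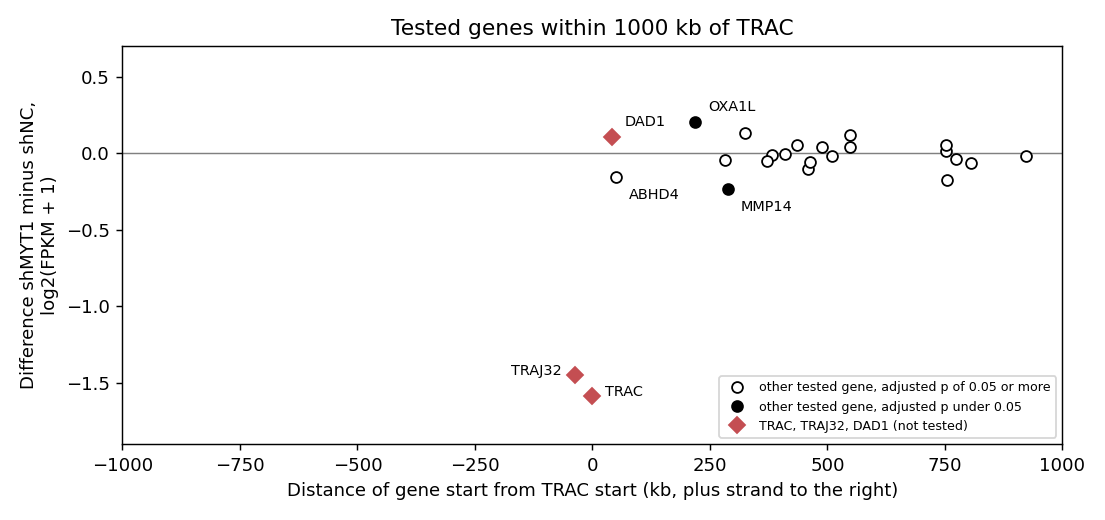
Difference in log2(FPKM + 1), shMYT1 minus shNC (vertical axis), of tested genes against the distance of their start from the start of TRAC in kb (horizontal axis). TRAC and TRAJ32 lie at -1.58 and -1.45, DAD1 at 0.11 and the 21 other genes between -0.24 and 0.20.

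DAD1 acts with 11 other subunits of the oligosaccharyltransferase complexes, and these did not move one way. Of the 11 genes, all tested, 4 rose and 3 fell, 63.6% against 24.2% of all tested genes, with a median log2(FPKM + 1) difference of -0.007. The falls were in OSTC, a subunit of the complex bound to the translocon, from 47.4 ± 1.39 to 39.7 ± 0.42 FPKM, in TUSC3, an oxidoreductase subunit, from 25.9 ± 0.71 to 21.8 ± 0.06 FPKM, and in the catalytic subunit gene STT3A, from 33.7 ± 0.95 to 30.3 ± 0.725 FPKM. Their limma adjusted p were 0.00186, 0.00242 and 0.0186. STT3A shares exon bases with CHEK1 on the same strand, and RPN2, DDOST, OST4, TMEM258 and KRTCAP2 also overlap exons of other genes.

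The rises were in MAGT1, the paralog of TUSC3, from 11.3 ± 0.22 to 12.9 ± 0.54 FPKM, in RPN2, from 72.2 ± 1.79 to 78.8 ± 0.60 FPKM, and in DDOST and OST4 (limma adjusted p = 0.0224, 0.0177, 0.0461 and 0.0470). With each library rescaled to the same FPKM total, none of the 4 rises passed and the 3 falls did. Of all genes called, 36.5% were then higher, against 49.2% as deposited. STT3B, the other catalytic subunit gene, had a log2 difference of -0.01, RPN1 -0.02 and KRTCAP2 -0.04. TMEM258 had 0.11 (limma adjusted p = 0.245), the same size as DAD1.

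**Figure D5:**
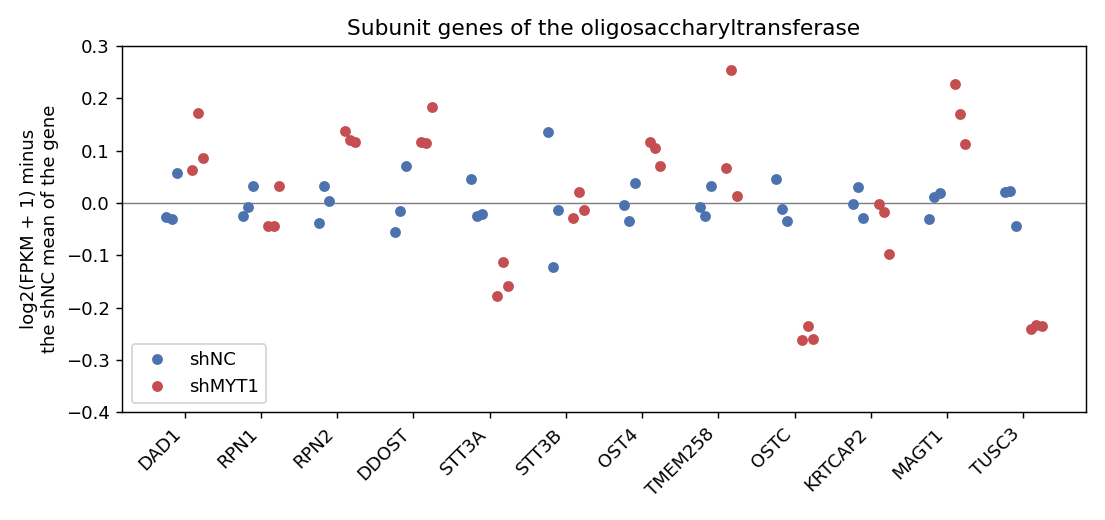
Log2(FPKM + 1) of DAD1 and 11 other oligosaccharyltransferase subunit genes in each library, relative to the shNC mean of the gene (vertical axis). OSTC, TUSC3 and STT3A lie below 0 in all shMYT1 libraries, and DAD1, RPN2, DDOST, OST4, TMEM258 and MAGT1 above 0.

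Upstream in the same pathway, 24 genes that build the lipid-linked sugar donor were tested. Of these, 1 rose and 3 fell, 16.7% against 24.2% of all tested genes. DPAGT1, the enzyme of the opening step, fell from 20.3 ± 0.27 to 17.3 ± 0.47 FPKM (limma adjusted p = 0.00417), and shares exon bases with C2CD2L on the opposite strand. ALG8 fell by 0.19 and SRD5A3 by 0.20 on the log2(FPKM + 1) scale, and DHDDS rose by 0.13 (limma adjusted p = 0.0191, 0.0326 and 0.0453). Over both lists 5 rose and 6 fell of 35, 31.4% against 24.2% of all genes. After rescaling to the same FPKM total 0 rose and 8 fell, where 1307 rose and 2278 fell among all 14112 genes tested. Leaving out shNC replicate 1 gave 4 calls in place of 11, shNC replicate 2 gave 5, shMYT1 replicate 1 gave 3, and shMYT1 replicate 2 or 3 gave 6. In these settings the calls among all tested genes also dropped, to between 2038 and 2632, against 3420.

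The genes whose pattern over the 6 libraries lay nearest to that of TRAC were SHD, STMN4, LIX1, GALNT13 and NR0B1, out of 7261 protein-coding genes whose mean reached 5 FPKM. The measure was the root mean square distance between values of log2(FPKM + 1), each centred on the mean of its gene, and it was 0.166 for SHD and 0.230 for NR0B1. None of the 5 lies on chromosome 14. SHD, an adaptor protein gene, was at 39.2 ± 1.58 FPKM in shNC and 12.3 ± 0.24 FPKM in shMYT1. With 2 groups of 3 libraries, nearness mostly means a like difference between the groups.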

How the data were processed

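Expression in 6 SK-N-BE(2) libraries was read from 1 deposited table of FPKM, a column for each library. HISAT2 2.0.5, featureCounts 1.5.0-p3 and the hg38 build are named in the submitters' processing notes, so the FPKM are taken as the authors' scaling of featureCounts fragments. Which annotation, strand setting or filter was applied is not stated in the labels. Of 32434 IDs, 32301 were found in GENCODE 29. Multiplying FPKM by exon length gave whole fragments, within 0.01, in all libraries for 95.4% of these.

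Values were tested as log2(FPKM + 1) in limma 3.58.1 under R 4.3.3, two-sided and with a variance trend, for genes whose mean reached 1 FPKM. P-values were adjusted by Benjamini-Hochberg over these genes, with a threshold of 0.05. Differences are shMYT1 minus shNC. The code was tested on simulated data. Replicates differed by more than counting noise (chi-square per gene 2.09 to 3.41), and limma took each library on its own. The fold levels and shares of TRAC and TRAJ32 rest on fragments summed over a group, so their intervals leave out that extra spread. The members, lists, windows and tests were chosen with earlier results of these data known. Named were the 3 genes and MYT1, the 4 nearest tested genes on each side, fixed receptor and factor genes, the oligosaccharyltransferase subunits, up to 4 passing members of each list and the 5 genes nearest in pattern. The other genes named, among them TCF3, ALG8, DHDDS, PAX5, CBFB and IGHM, were added after their values were seen. Intervals and floors cover counting error only. Other settings tried were another pseudocount, filters, scaling, no variance trend, voom, other windows, the replicate block and each library left out. Some items are not reported here.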

Additional observations from a re-analysis of the deposited data

How the results depend on the processing

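The differences of TRAC, TRAJ32 and DAD1 kept their direction under every alternative run. With a pseudocount of 0.1 they were -2.55 for TRAC and -1.77 for TRAJ32, a change set by the smaller pseudocount itself. With 1 library left out at a time, TRAC ranged from -1.70 to -1.43, TRAJ32 from -1.53 to -1.34 and DAD1 from 0.08 to 0.14. MYT1 passed in the 12 alternatives that gave it a p. Genes called among all tested ranged from 2038 to 3048 with 1 library left out, against 3420. Of genes called, 36.5% were higher after rescaling to the same FPKM total, against 49.2% as deposited. Factor genes called were 8 with that rescaling, 2 with no filter on low values, 3 with no variance trend, 10 with voom and 1 to 5 with 1 library left out, against 5. N-glycosylation genes called were 7 with no filter and 3 to 9 with 1 library left out, against 11. Neighbouring genes called were 4 with voom, 9 in a window of 2000 kb and 1 to 2 with 1 library left out, against 2. Of T cell markers 2 were called once low genes entered, and 0 at 5 FPKM or more, where none was tested, against 1. The causes were not tested. Replicate numbers are shared between groups. Deviations of same-numbered libraries had correlations of 0.013 to 0.043, against -0.039 to 0.008 for libraries of unlike number. All were small, and whether the numbers pair the libraries cannot be told from them. With the replicate block 3381 genes were called, 10 of the N-glycosylation genes, 6 factors and 2 neighbours. Depth limits TRAJ32 most, with 2 or 3 fragments per shMYT1 library.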
